A study of Mus musculus with 7 samples.

Results

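The genes described here are 39 interferon-stimulated genes, taken as a list of mouse symbols and looked up in a table of 51912 genes. All 39 symbols matched 1 Ensembl gene each. All 39 passed the filter on low counts and were among 16504 genes tested. The list was given by gene name, with earlier results of these libraries known, and antigen presentation genes were left out of it. The islets came from 7 db/db mice, a model of type 2 diabetes with obesity caused by loss of the leptin receptor, and their messenger RNA was sequenced. The AAV-Adipsin group held 3 mice that had received an adeno-associated virus (AAV) for adipsin, and the AAV-GFP group held 4 mice that had received an AAV for green fluorescent protein. Adipsin is complement factor D, a serine protease of the alternative complement pathway that fat cells secrete, and its mouse gene is Cfd. Islets of both groups were taken 4 weeks after the vector and were cultured for 12 hours before RNA was isolated, and each library came from a separate mouse. The db/db genotype, an AAV and the culture step were therefore shared by both groups. The AAV serotype and promoter, the background strain of the mice and their age were not given in the sources used here.

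Interferons are secreted alarm signals of antiviral defence. Type I interferons bind the receptor made of IFNAR1 and IFNAR2, and JAK kinases then activate the complex ISGF3, which holds STAT2 and IRF9. ISGF3 binds a promoter element called the interferon-stimulated response element (ISRE) and turns on genes that sense foreign nucleic acids, block translation, degrade RNA or tag proteins. Interferon gamma works through another element, the gamma-activated site (GAS), and favours the guanylate-binding proteins, the immunity-related GTPases and IRF1. In islets these genes are known from the response of endocrine cells to virus and from the early phase of type 1 diabetes.

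Many of the promoters, but not all, show the elements by which this family is known. RefSeq promoter windows on GRCm38.p6, 250 bases before to 50 bases from a start, were at hand for 29 of the 39 genes (33 windows). They were searched on both strands for GAAA, any 2 bases and GAAA again, the core of the ISRE, and for TTC, any 3 bases and GAA, the core of the GAS, which reads the same on both strands. The ISRE letters were found for 17 of 29 genes (58.6%), against 1079 of 27025 genes in the whole set (3.99%). The GAS letters were found for 9 of 29 (31.0%), against 9.55% of all genes. The following sites are printed 5′ to 3′ on the strand of the gene, with the motif in capitals, for genes on which the results below turn. Coordinates span the whole printed stretch, flanking bases included. Where the ISRE lies on the opposite strand it reads TTTC, 2 bases and TTTC. The Isg15 matches overlap one another, and the Ifit3 matches do not. Gbp3 and Socs1 each hold 2 overlapping ISRE matches, of which 1 is printed. For Isg15 the matches begin 78, 72 and 66 bases before the start (chr4:156200879-156200904, chr4:156200873-156200898 and chr4:156200867-156200892, minus strand). For Ifit3 they begin 156 and 122 bases before it (chr19:34583365-34583390 and chr19:34583399-34583424, plus strand).
Isg15 distal ISRE: tgccgtagGAAAAGGAAAccgaaaca
Isg15 middle ISRE: aggaaaagGAAACCGAAAcagaaaat
Isg15 proximal ISRE: aggaaaccGAAACAGAAAatagctct
Ifit3 distal ISRE: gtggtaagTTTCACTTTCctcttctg
Ifit3 proximal ISRE: taagtctgTTTCAGTTTCtactttcc
Oas3 ISRE (chr5:120777717-120777742, minus strand): agggaggaGAAAACGAAAgtgaaggg
Gbp3 ISRE (chr3:142559991-142560016, plus strand): ggacacagTTTCAGTTTCtatttccc
Igtp GAS (chr11:58199503-58199527, plus strand): ctagccatTTCTAGGAActgaaact
Igtp ISRE (chr11:58199514-58199539, plus strand): taggaactGAAACTGAAAgctgttcg
Socs1 ISRE (chr16:10785596-10785621, minus strand): cggaaagaGAAACCGAAAgcgggggt

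The 3 overlapping matches of Isg15 lie together in the 120 bases before its start (chr4:156200819-156200938, minus strand), shown whole because this is the most densely matched window among the genes described in full.
Isg15 promoter: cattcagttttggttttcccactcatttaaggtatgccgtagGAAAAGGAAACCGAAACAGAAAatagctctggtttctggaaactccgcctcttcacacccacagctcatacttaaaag

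Irf1, the interferon-gamma-responsive transcription factor, had a GAS and no ISRE in its windows. The 120 bases before its upstream start are chr11:53769894-53770013 on the plus strand. Its GAS lies within chr11:53769916-53769940, the stretch printed here with flanking bases.
Irf1 GAS: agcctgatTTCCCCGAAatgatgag
The median log2 fold change (AAV-Adipsin over AAV-GFP) was 0.38 over the 17 genes with an ISRE match and 0.31 over the 12 genes with a window and no match. For the GAS it was 0.29 over 9 genes with a match and 0.37 over 20 without. These are descriptions of letters in a window and not of factors bound there.

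Total counts ran from 31255734 to 39281934 in the AAV-Adipsin libraries and from 29601707 to 43997400 in the AAV-GFP libraries. Levels are given in CPM, a count scaled to the size of its library, and a count of 0 allows up to 3 counts, which equal 0.0682 to 0.101 CPM at these depths. Cfd, the gene in the vector, had 3965, 839 and 1481 counts in AAV-Adipsin islets and 1, 0, 0 and 0 counts in AAV-GFP islets. The beta cell genes (insulin genes and 8 others) summed to 164159 to 204436 CPM in AAV-Adipsin and 173264 to 203220 CPM in AAV-GFP. In each group replicate 1 is described in the labels by its treatment and the other libraries by a number after "db". The labels do not say what this difference in description marks. It is carried through the results below because several of the 39 genes follow it.

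No interferon-stimulated gene passed the threshold between the groups. By edgeR's quasi-likelihood test with Benjamini-Hochberg adjustment over all genes (threshold 0.05), 0 of 39 genes were called, with an adjusted p of 1.00 for each, and 1 of all 16504 genes was called (0.00606%). DESeq2 also called 0 of 39 (background 0.0102%), as did limma-voom (background 0%). DESeq2 was run without the low-count filter, so its background shares are over 29433 genes. They are not like for like with the shares of 16504 genes. At an unadjusted edgeR p under 0.05 there were 6 of 39 genes, or 15.4%, against a background of 1.16% of all genes. All 6 were higher in AAV-Adipsin islets (background 0.721%), and they were Oas3, Ifit3, Ifit2, Oas2, Mx1 and Igtp. DESeq2 had 10 genes at that level and limma-voom had 5, all of them higher in AAV-Adipsin as well (backgrounds 0.673% and 0.776% higher). Oas3 reached the filter's level in only 2 AAV-GFP libraries and passed with the help of the AAV-Adipsin libraries, where it was higher. Its place among the 6 is therefore not independent of the filter. The fitted log2 fold change lay above 0 for 37 of 39 genes, against 46.2% of all genes, and the median was 0.33 over the 39 genes against -0.01 over all genes tested. Because of how the list was drawn up, these counts are a description and not independent evidence of a direction.

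The highest values belonged mostly to 1 mouse. AAV-Adipsin 3 was the highest library for 28 of 39 genes, although it was the highest for only 7.16% of all genes tested. AAV-Adipsin 2 was the highest for 8 genes (Irf7, Isg15, Oas1a, Oas2, Oas3, Dhx58, Zbp1 and Bst2), AAV-GFP 4 for 3 genes (Ifi27, Ifi35 and Socs1), and AAV-Adipsin 1 for none. At the low end stood AAV-GFP 1 for 18 genes, and AAV-Adipsin 1 and AAV-GFP 2 for 8 each. Without AAV-Adipsin 3 the median log2 fold change was 0.13, 29 genes lay above 0 and 1 had an unadjusted p under 0.05 (background 0.840%). Without AAV-Adipsin 1 the median was 0.66, 38 genes lay above 0 and 19 had an unadjusted p under 0.05 (background 3.15%). The groups did not overlap for 1 gene, Igtp, which was higher in AAV-Adipsin (background 1.16% higher and 1.58% lower). An exact two-sided permutation test over the 35 divisions of 7 libraries into 3 and 4 gave 0.0571 for it, the smallest p this design allows.

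**Figure D1:**
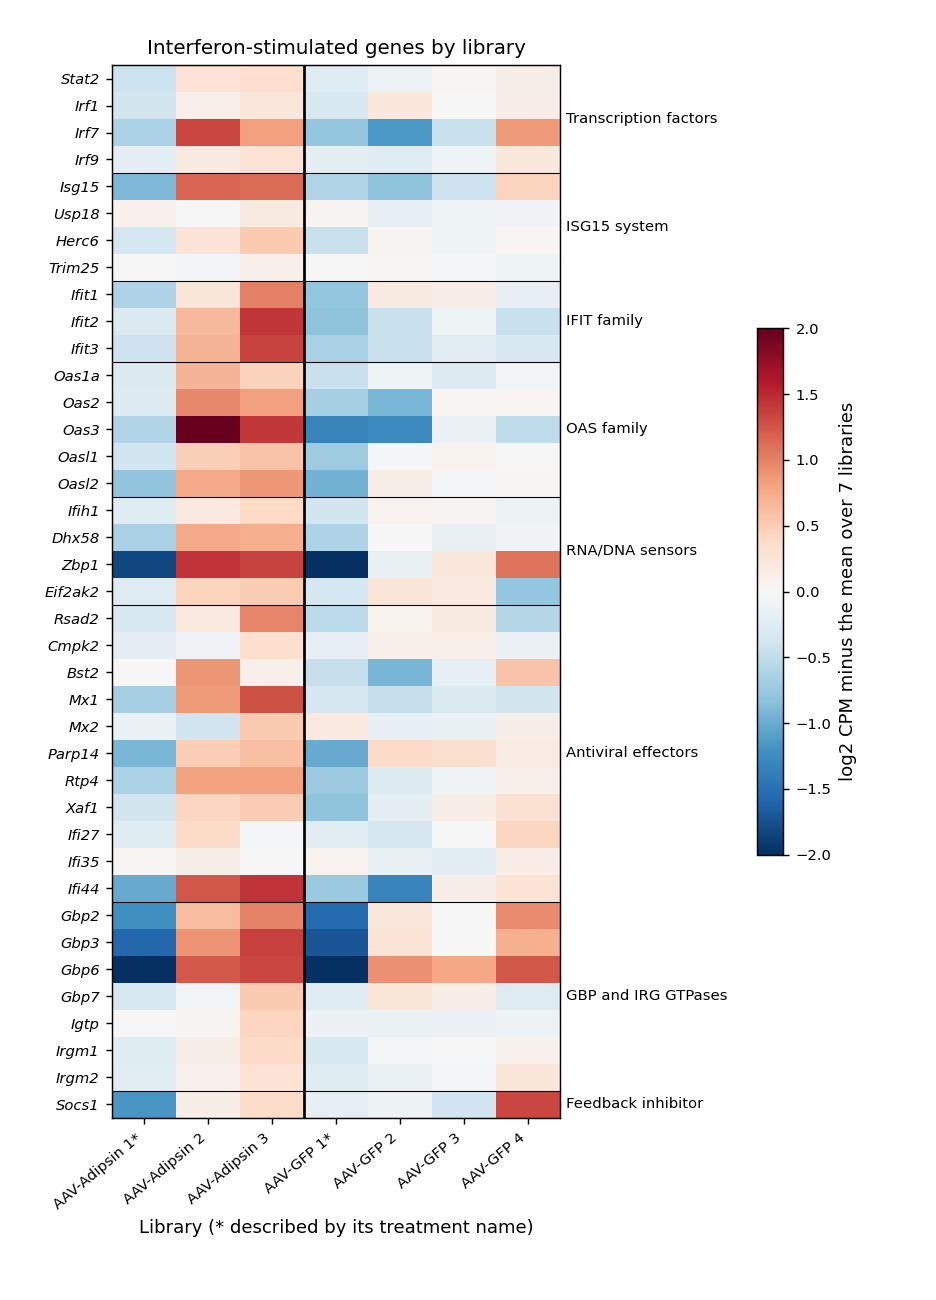
Interferon-stimulated genes by library. Each row is 1 of the 39 genes, each column 1 library (AAV-Adipsin left, AAV-GFP right, a star marking replicate 1 of each group, which is described by treatment), and colour is log2 CPM minus the gene's mean over the 7 libraries, with larger deviations shown in the end colours. AAV-Adipsin 3 is the highest column for 28 genes, and replicate 1 of both groups is pale or blue for nearly every gene.

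Macrophage markers also had log2 fold changes above 0. The summed level of 20 macrophage markers was 190, 412 and 215 CPM in AAV-Adipsin 1 to 3, against 173, 199, 184 and 260 CPM in AAV-GFP 1 to 4. All 20 markers were tested and had a log2 fold change above 0, with a median of 0.48. None was called by edgeR, and 1, Fcgr1, had an unadjusted p under 0.05 (1.16% of all genes). The largest macrophage sum was in AAV-Adipsin 2, the highest library for 8 of the 39 genes (12.8% of all genes tested). AAV-Adipsin 3 was the highest for 28 of the 39 genes (7.16% of all genes tested). Lymphocyte markers summed to 4.15, 8.85 and 4.18 CPM in AAV-Adipsin and 3.31 to 4.11 CPM in AAV-GFP, with Cd3e and Nkg7 at 0 counts in every library and 3 of 15 markers tested. Neutrophil markers summed to 0.441 to 2.25 CPM in AAV-Adipsin and 0.292 to 1.41 CPM in AAV-GFP, with Ly6g and Retnlg at 0. Markers of plasmacytoid dendritic cells, the specialised producers of type I interferon, summed to 84.4 to 95.6 CPM in AAV-Adipsin and 76.0 to 89.8 CPM in AAV-GFP. That sum came almost wholly from Tcf4 and Bst2, and Siglech, which defines the cell type, had 0 counts in AAV-Adipsin and at most 2 in an AAV-GFP library. Endothelial markers summed to 723 to 855 CPM in AAV-Adipsin and 571 to 960 CPM in AAV-GFP, and mesenchymal markers to 405 to 576 CPM in AAV-Adipsin and 247 to 894 CPM in AAV-GFP. Acinar markers summed to 3810 to 14262 CPM in AAV-Adipsin and 3036 to 19848 CPM in AAV-GFP. All 20 acinar markers were tested and none had a log2 fold change above 0, with a median of -0.39, and 1 of 10 beta cell genes lay above 0, with a median of -0.06. None of these acinar and beta cell genes was called by edgeR or had an unadjusted p under 0.05. The part of any of these cell types in the values of the 39 genes was not tested, and in whole islets fewer cells of a type cannot be told apart from less RNA per cell.

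Among the transcription factors, Irf7 differed most between group means and Irf1 hardly at all. Irf7, which amplifies the type I response, had 5.19, 20.3 and 14.1 CPM in AAV-Adipsin 1 to 3, against 4.69, 3.60, 5.90 and 14.5 CPM in AAV-GFP 1 to 4. AAV-GFP 4 lay as high as AAV-Adipsin 3, so the groups overlapped, and the log2 fold change was 0.88 (SE 0.593, unadjusted edgeR p = 0.179, exact permutation p = 0.286). Irf9, the DNA-binding subunit of ISGF3, had 25.1, 32.3 and 34.6 CPM in AAV-Adipsin and 25.2, 23.9, 26.7 and 32.9 CPM in AAV-GFP. Its log2 fold change was 0.18 (SE 0.145, unadjusted edgeR p = 0.256, exact permutation p = 0.457). Stat2, its partner in ISGF3, averaged 36.6 ± 9.82 CPM in AAV-Adipsin and 33.1 ± 3.53 CPM in AAV-GFP (SD, n = 3 and 4). Irf1 averaged 90.6 ± 18.4 CPM in AAV-Adipsin and 91.4 ± 13.96 CPM in AAV-GFP (SD, n = 3 and 4), with a log2 fold change of -0.01 whose sign depended on the processing.

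The ISG15 system tags proteins with a ubiquitin-like modifier, and the modifier itself was the member that stood out. Isg15 had 1.04, 4.35 and 4.18 CPM in AAV-Adipsin 1 to 3 and 1.27, 1.10, 1.46 and 2.62 CPM in AAV-GFP 1 to 4. AAV-Adipsin 2 and 3 lay above every AAV-GFP library while AAV-Adipsin 1 lay below them all, and the log2 fold change was 0.99 (SE 0.491, unadjusted edgeR p = 0.0765, exact permutation p = 0.286). Usp18, the protease that removes ISG15 and restrains the type I receptor, had 33.1, 30.9 and 35.2 CPM in AAV-Adipsin and 32.5, 27.9, 29.4 and 29.7 CPM in AAV-GFP. It varied little between any of the libraries, with a log2 fold change of 0.15 (SE 0.0877, unadjusted edgeR p = 0.128, exact permutation p = 0.114). Herc6, the ISG15 ligase of the mouse, averaged 17.9 ± 5.15 CPM in AAV-Adipsin and 14.6 ± 2.20 CPM in AAV-GFP (SD, n = 3 and 4). Trim25, a ubiquitin ligase that activates the RNA sensor RIG-I, averaged 134 ± 7.08 CPM in AAV-Adipsin and 131 ± 4.46 CPM in AAV-GFP (SD, n = 3 and 4), with a log2 fold change of 0.03.

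The IFIT proteins bind viral RNA ends and block translation, and their 3 genes had the highest median of any role, at a log2 fold change of 1.11. Ifit2 had 1.82, 3.46 and 5.93 CPM in AAV-Adipsin 1 to 3 and 1.27, 1.62, 2.08 and 1.62 CPM in AAV-GFP 1 to 4. Its log2 fold change was 1.18 (SE 0.372, unadjusted edgeR p = 0.0116, exact permutation p = 0.114). Ifit3 had 5.13, 11.01 and 17.5 CPM in AAV-Adipsin and 4.38, 5.03, 5.85 and 5.49 CPM in AAV-GFP, with a log2 fold change of 1.11 (SE 0.345, unadjusted edgeR p = 0.0111, exact permutation p = 0.171). For both genes AAV-Adipsin 3 was the highest, AAV-Adipsin 2 came next and AAV-Adipsin 1 lay within the AAV-GFP range. Ifit3 averaged 11.2 ± 6.18 CPM in AAV-Adipsin and 5.19 ± 0.631 CPM in AAV-GFP (SD, n = 3 and 4), where the libraries lay close together. Ifit1 overlapped more, at 10.5 to 32.5 CPM in AAV-Adipsin and 9.45 to 18.4 CPM in AAV-GFP, with a log2 fold change of 0.47. Ifit3 shares 51.2% of its 50-base transcript words with its neighbour Ifit3b, so counts of these copies may have been split or dropped. Ifit3b itself had a log2 fold change of 0.66 (edgeR adjusted p = 1.00).

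The oligoadenylate synthetases sense double-stranded RNA and make the activator of RNase L, and all 5 listed genes of the family had a log2 fold change above 0. Oas3 had the largest difference of the 39 genes and the lowest level. It had 0.259, 2.09 and 1.05 CPM in AAV-Adipsin 1 to 3 and 0.156, 0.162, 0.364 and 0.276 CPM in AAV-GFP 1 to 4, with a log2 fold change of 2.22 (SE 0.645, unadjusted edgeR p = 0.00765, exact permutation p = 0.171). These are 10, 66 and 42 counts in AAV-Adipsin and 7, 5, 14 and 8 counts in AAV-GFP, so a few reads carry the low values. Oas3 reached the filter's level of 0.261 CPM in 2 AAV-GFP libraries only and passed the filter with the help of the AAV-Adipsin libraries. Oas2 had 2.77, 6.53 and 5.96 CPM in AAV-Adipsin and 2.11, 1.79, 3.46 and 3.45 CPM in AAV-GFP. Its log2 fold change was 0.91 (SE 0.346, unadjusted edgeR p = 0.0276, exact permutation p = 0.171), and AAV-Adipsin 1 again lay inside the AAV-GFP range. Oas1a averaged 3.20 ± 1.02 CPM in AAV-Adipsin and 2.21 ± 0.272 CPM in AAV-GFP (SD, n = 3 and 4). Of the OAS-like genes, Oasl2 had 12.7 to 39.8 CPM in AAV-Adipsin and 11.3 to 23.6 CPM in AAV-GFP, and Oasl1 had 3.29 to 6.41 CPM in AAV-Adipsin and 2.65 to 4.55 CPM in AAV-GFP. Oas1a shares 57.6% of its 50-base words with Oas1g, so these copies are uncertain too.

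Of the sensors of foreign RNA and DNA, Dhx58 and Eif2ak2 had the smallest p. Dhx58, which encodes LGP2, a helper of the RNA sensor MDA5, had 3.58, 9.52 and 9.26 CPM in AAV-Adipsin 1 to 3 and 3.67, 5.55, 5.04 and 5.35 CPM in AAV-GFP 1 to 4. The replicates 1 lay together at the bottom and the other AAV-Adipsin libraries above all others, with a log2 fold change of 0.60 (SE 0.321, unadjusted edgeR p = 0.0931, exact permutation p = 0.286). Eif2ak2, which encodes the translation-blocking kinase PKR, had 30.8, 50.1 and 52.3 CPM in AAV-Adipsin and 29.0, 43.4, 42.4 and 21.5 CPM in AAV-GFP (log2 fold change 0.38, SE 0.276, unadjusted edgeR p = 0.203, exact permutation p = 0.286). Ifih1, which encodes MDA5, averaged 47.7 ± 10.4 CPM in AAV-Adipsin and 41.1 ± 5.36 CPM in AAV-GFP (SD, n = 3 and 4). Zbp1, a sensor of Z-form nucleic acids, ran from 0.389 to 3.71 CPM in AAV-Adipsin and from 0.311 to 2.90 CPM in AAV-GFP, a spread within each group far wider than the difference between them.

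The 11 antiviral effectors all had a log2 fold change above 0, from 0.05 for Mx2 to 1.18 for Ifi44. Mx1, a dynamin-like GTPase that traps viral ribonucleoproteins, had 0.622, 1.78 and 2.38 CPM in AAV-Adipsin 1 to 3 and 0.779, 0.714, 0.806 and 0.759 CPM in AAV-GFP 1 to 4. The 4 AAV-GFP values were nearly equal, AAV-Adipsin 2 and 3 lay above them and AAV-Adipsin 1 below, with a log2 fold change of 1.05 (SE 0.407, unadjusted edgeR p = 0.0300, exact permutation p = 0.286). These are 24, 56 and 95 counts in AAV-Adipsin and 35, 22, 31 and 22 counts in AAV-GFP. The near equality and the place of AAV-Adipsin 1 below are within counting error. Ifi44, an interferon-induced gene whose product restrains virus growth, had 0.441, 2.09 and 2.43 CPM in AAV-Adipsin and 0.534, 0.357, 0.961 and 1.07 CPM in AAV-GFP (log2 fold change 1.18, SE 0.573, unadjusted edgeR p = 0.0707, exact permutation p = 0.286). AAV-Adipsin 2 and 3 lay above every AAV-GFP library, and AAV-Adipsin 1 lay within the AAV-GFP range. Rsad2 (viperin), which makes a chain-terminating nucleotide, averaged 37.0 ± 16.8 CPM in AAV-Adipsin and 25.1 ± 6.76 CPM in AAV-GFP (SD, n = 3 and 4). Its genomic neighbour Cmpk2, a nucleotide kinase, averaged 56.6 ± 11.5 CPM in AAV-Adipsin and 54.5 ± 5.33 CPM in AAV-GFP (SD, n = 3 and 4). Bst2 (tetherin), which holds budding virus at the cell surface, ran from 9.05 to 16.8 CPM in AAV-Adipsin and from 4.81 to 13.5 CPM in AAV-GFP. The transmembrane chaperone Rtp4 ran from 3.45 to 9.33 CPM in AAV-Adipsin and from 3.23 to 5.69 CPM in AAV-GFP, with a log2 fold change of 0.68. The ADP-ribosyltransferase Parp14 (log2 fold change 0.15), Xaf1 (0.33), Ifi27 (0.06), Ifi35 (0.09) and Mx2 (0.05) made up the rest.

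The guanylate-binding proteins and immunity-related GTPases attack the vacuoles of intracellular microbes. Igtp was the only listed gene whose groups did not overlap, 1 of 39 (2.56%) against 1.16% of all genes higher without overlap. A single gene at that share is a description and not a result about the list. Igtp had 16.1, 16.9 and 21.9 CPM in AAV-Adipsin 1 to 3 and 14.97, 14.8, 14.9 and 15.1 CPM in AAV-GFP 1 to 4. The AAV-Adipsin libraries averaged 18.3 ± 3.18 CPM and the AAV-GFP libraries lay close together at 14.9 ± 0.140 CPM (SD, n = 3 and 4), a log2 fold change of 0.29 (SE 0.121, unadjusted edgeR p = 0.0389, exact permutation p = 0.0571). The AAV-GFP values rest on 673, 455, 574 and 438 counts. Their closeness, and their gap to AAV-Adipsin 1 at 620 counts, are within counting error. Igtp overlaps Irgm2 by 162 exon bases and shares 11.8% of its 50-base words with it, while Irgm2 had a log2 fold change of 0.09. Irgm1 had 33.0, 42.0 and 51.0 CPM in AAV-Adipsin and 31.3, 38.1, 38.8 and 41.4 CPM in AAV-GFP (log2 fold change 0.17, SE 0.153, unadjusted edgeR p = 0.299, exact permutation p = 0.400). Gbp2, Gbp3 and Gbp6 spread widely inside both groups, and Gbp7 ran from 10.8 to 19.5 CPM in AAV-Adipsin and from 11.2 to 16.0 CPM in AAV-GFP. Gbp6, chosen here after its values were seen, had 1.504, 20.5 and 22.0 CPM in AAV-Adipsin and 1.11, 16.5, 14.9 and 20.7 CPM in AAV-GFP, so that its low values were the replicates 1 of both groups. Gbp2, Gbp3 and Gbp7 had log2 fold changes of 0.25, 0.63 and 0.11.

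Socs1, the feedback inhibitor that blocks JAK kinases, was the gene with the clearest value below 0. It had 0.467, 1.14 and 1.35 CPM in AAV-Adipsin 1 to 3 and 0.934, 0.974, 0.806 and 2.66 CPM in AAV-GFP 1 to 4. AAV-GFP 4 stood far above the others, and the log2 fold change was -0.43 (SE 0.518, unadjusted edgeR p = 0.428, exact permutation p = 0.629). Without AAV-GFP 4 it was 0.13, so 1 library set its sign.

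**Figure D2:**
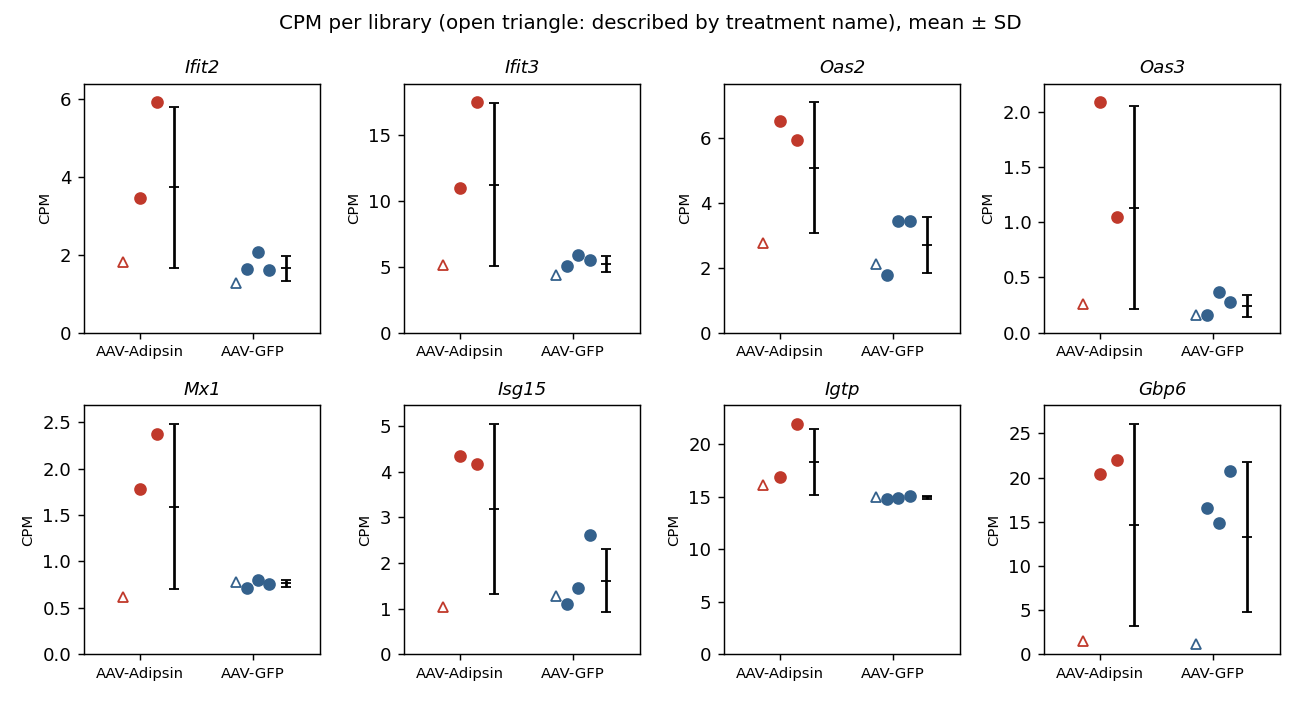
CPM in each library (vertical axis from 0) for 8 genes, AAV-Adipsin left and AAV-GFP right, with open triangles for the libraries described by treatment and bars for mean ± SD (n = 3 and 4). For Ifit2, Ifit3, Oas2, Oas3, Mx1 and Isg15 the 2 filled AAV-Adipsin points lie above every AAV-GFP point while the AAV-Adipsin triangle lies among or below them, and for Gbp6 the triangles of both groups lie near 1 CPM.

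Because both groups hold libraries of both description styles, the treatment could be compared within each. Among the 5 db-numbered libraries, log2 CPM was higher in AAV-Adipsin (n = 2) than in AAV-GFP (n = 3) for 38 of 39 genes, with a median difference of 0.40, against 49.1% of all genes and a median of -0.00. Between the 2 treatment-named libraries it was higher in AAV-Adipsin for 26 of 39 genes, with a median of 0.10, against 49.6% of all genes. The db-numbered difference was the larger one for 37 of 39 genes, against 50.5% of all genes. The db-numbered groups did not overlap for 25 genes, all higher in AAV-Adipsin. Of all 16504 genes tested, 1321 were higher in AAV-Adipsin without overlap, 11.3% were lower, and 19.3% did not overlap in either direction. These 25 held all 3 IFIT genes, all 5 OAS genes and all 4 sensors. Because of how the list was drawn up, these counts too are a description and not independent evidence of a direction.

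In an edgeR fit of the 5 db-numbered libraries alone, 21 of 39 genes had an unadjusted p under 0.05, all higher in AAV-Adipsin (background 2.19% higher). In that fit 0 of 39 and 0 of 16237 genes passed the adjusted threshold (0%). It leaves out AAV-Adipsin 1 and AAV-GFP 1, the lowest libraries for 8 and 18 of the 39 genes and the highest for none. With the list drawn up as it was, this count and those below are a description and not independent evidence of a direction. The smallest p belonged to Oasl2, at a log2 fold change of 0.79 (SE 0.0863, adjusted p = 0.659), followed by Ifit3 at 1.40 (SE 0.211) and Dhx58 at 0.83 (SE 0.130). With all 7 libraries and description style as a term, 21 genes again had an unadjusted edgeR p under 0.05, all higher (background 1.51% higher), and none was called (background 0.00606%). Those genes included Ifit2 at 1.16, Oas2 at 0.90, Oas3 at 2.13 and Oasl2 at 0.60. DESeq2 with the same term, added after the data were seen, had 22 genes at an unadjusted p under 0.05 (background 0.955% higher). It called 0 of 39 (background 0.0136%), with the smallest adjusted p at 0.0575 for Oasl2 and 0.0962 for Ifit3. Both backgrounds are over 29433 genes without the low-count filter. The difference between the styles in the effect of treatment was fitted as an interaction, in which the treatment-named arm holds 1 library per group, so its treatment effect has no replication and the spread comes from the db-numbered libraries alone. It called 0 genes of the list and 0 of all genes in edgeR (0%), while 6 genes of the list (Oasl2, Mx1, Dhx58, Ifit3, Stat2 and Rtp4) had an unadjusted p under 0.05, all with the smaller treatment effect in the treatment-named libraries (background 0.642%). It uses the same libraries as the differences by style given above and adds no independent evidence to them.

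**Figure D3:**
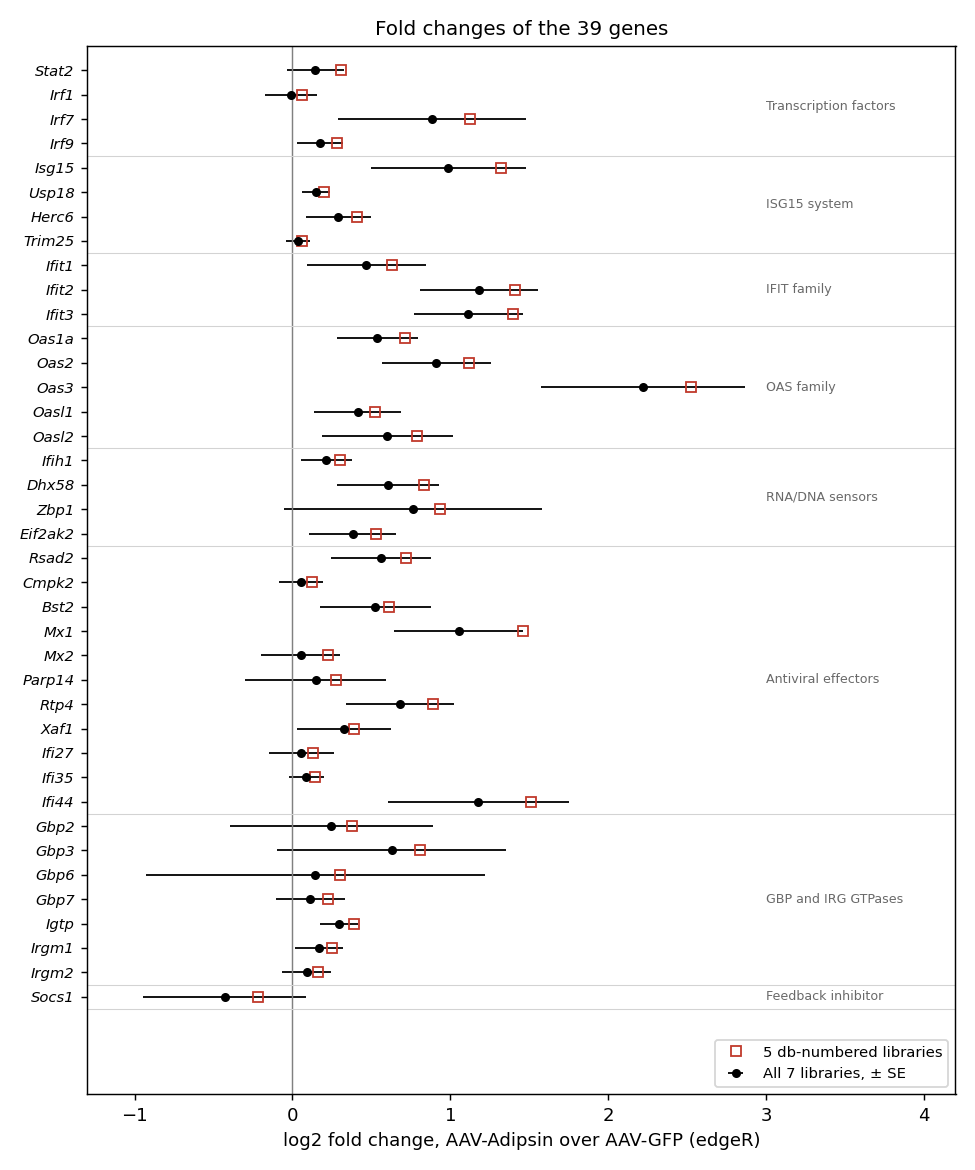
Log2 fold change, AAV-Adipsin over AAV-GFP, for the 39 genes by role. Black points are the edgeR fit of all 7 libraries with bars of ± SE derived from the test statistic, and red squares the fit of the 5 db-numbered libraries. All genes but Irf1 and Socs1 lie above 0 with all libraries, and every red square lies right of its black point.

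Some interferon-stimulated genes passed the threshold for description style. With the treatment in the model, 16 of 39 genes were lower in the 2 treatment-named than in the 5 db-numbered libraries by edgeR's quasi-likelihood test at an adjusted p under 0.05, and none was higher. This comparison was added after the data were seen. The background was 5.57% of all genes lower and 4.22% higher, so many genes of other kinds were called for description style as well. The median log2 difference was -0.75 over the 39 genes and -0.01 over all genes tested. In 20 of 39 genes the 2 treatment-named libraries both lay below all 5 others (background 18.9%), and in none above them (background 18.7%).

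Of the genes that fell with description style, Gbp6, Zbp1, Gbp3 and Gbp2 had the largest differences. Gbp6 fell to 1.504 and 1.11 CPM in the treatment-named libraries, against 14.9 to 22.0 CPM in the db-numbered ones, a log2 difference of -3.89 (SE 0.181, edgeR adjusted p = 1.89e-04). Gbp6 shares 46.0% of its 50-base words with Gbp10, so the 2 are uncertain as separate genes. It shares 65.0% with Gm43302, a same-strand gene with 0 counts that overlaps Gbp6 by 1726 exon bases. Reads there may have been dropped. Zbp1 averaged 0.350 CPM in treatment-named and 2.59 CPM in db-numbered libraries (log2 difference -2.89, SE 0.420, edgeR adjusted p = 0.0100). Gbp3 (-2.37, adjusted p = 0.00486) and Gbp2 (-2.02, adjusted p = 0.00924) fell as well in edgeR. Parp14 averaged 24.9 CPM in treatment-named and 64.0 CPM in db-numbered libraries, with a log2 difference of -1.37 (SE 0.0936, edgeR adjusted p = 4.44e-04). The others past the threshold were Oasl2 (-1.27), Ifit1 (-1.05), Rtp4 (-1.002), Dhx58 (-0.92), Xaf1 (-0.87), Oasl1 (-0.81), Herc6 (-0.59), Irf1 (-0.48), Stat2 (-0.47), Ifih1 (-0.45) and Irgm1 (-0.41).

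The other members were not called for description style, although 25 of 39 genes were lower in the treatment-named libraries at an unadjusted edgeR p under 0.05 (background 14.3% lower). Several of those not called had differences as large as the called ones, among them Oas3 (-1.79, SE 0.588), Ifi44 (-1.37, SE 0.539), Irf7 (-1.20, SE 0.570) and Isg15 (-1.13, SE 0.452). Others were near 0. Trim25 averaged 132 CPM in both kinds of library (log2 difference -0.00, SE 0.0697), and Usp18 averaged 32.8 CPM in treatment-named and 30.6 CPM in db-numbered libraries (0.09, SE 0.0808). Igtp, with a difference of -0.13 (SE 0.121), and Ifi35, with 0.06 (SE 0.110), were not called either. Of the 6 genes with an unadjusted p under 0.05 for treatment, none was called for description style, but Oas3, Ifit2 (-0.90), Ifit3 (-0.83), Oas2 (-0.79) and Mx1 (-0.75) were lower on average in the treatment-named libraries. Macrophage markers had a median of -0.67 for description style with 2 of 20 called lower by edgeR (background 5.57%). Acinar markers fell further, with a median of -1.27 and 1 of 20 called lower. The medians were -0.71 for plasmacytoid dendritic (4 tested), -0.52 for mesenchymal and -0.20 for endothelial markers, with none called. Beta cell genes had 0.14 with 4 of 10 called higher (background 4.22%). The part of these cell types in the difference was not tested.

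**Figure D4:**
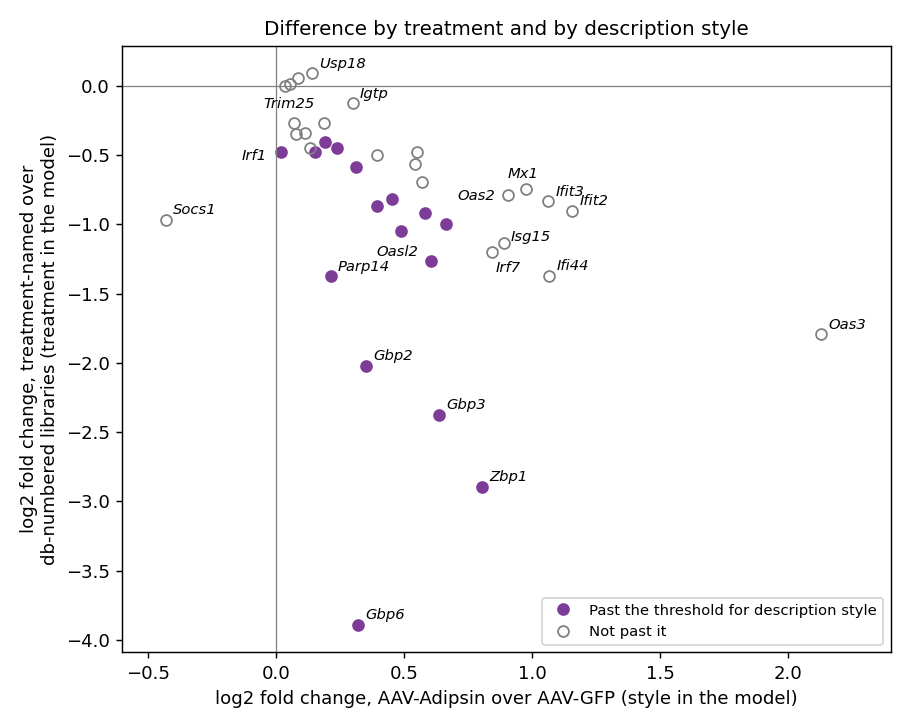
Log2 fold change by treatment (horizontal axis, AAV-Adipsin over AAV-GFP with style in the model) against log2 fold change by description style (vertical axis, treatment-named over db-numbered with treatment in the model), 1 point per gene. Filled points are the 16 genes past the threshold for style. Gbp6, Zbp1, Gbp3 and Gbp2 lie lowest with treatment values under 1, while Oas3 lies far right at 2.13.

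The 39 genes differed in level by about 3 orders of magnitude on a scale of CPM per kilobase of exon. In AAV-GFP islets Ifi27, an interferon-induced mitochondrial protein, was the highest at a mean of 37.3 CPM per kilobase (range 29.4 to 50.1 over 4 libraries). Irf1 followed at 23.0 (18.2 to 26.2) and Trim25 at 22.8 (21.8 to 23.6), and these 2 neighbours overlapped. Cmpk2 at 13.1, Ifi35 at 12.1 and Usp18 at 10.7 CPM per kilobase came next. At the low end were Mx1 at 0.202, Ifi44 at 0.119 and Oas3 at 0.0339 CPM per kilobase. The members with the largest treatment difference were thus low in level. Oas3, Ifi44, Mx1 and Ifit2 took ranks 39, 38, 37 and 36, and Ifit3, at 2.97 CPM per kilobase, took rank 19.

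**Figure D5:**
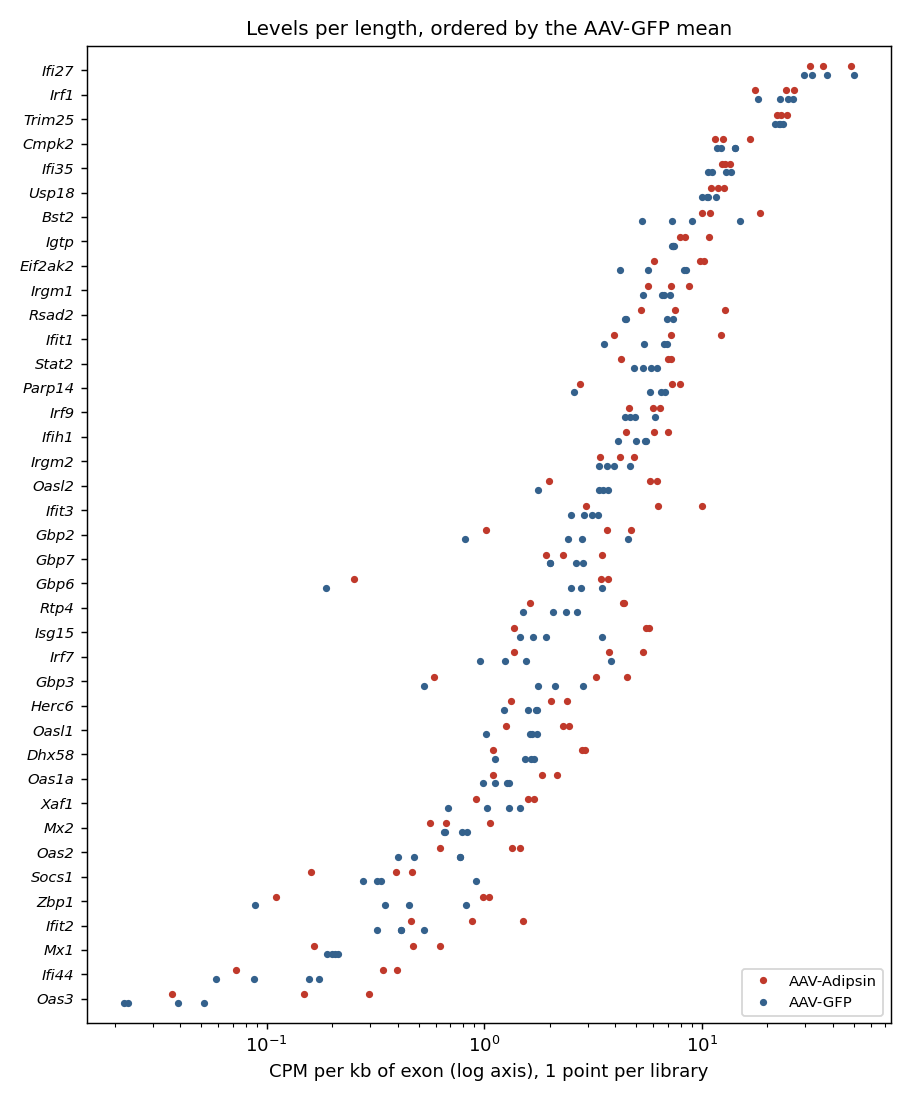
Level of each gene in CPM per kilobase of exon on a log axis, 1 point per library, AAV-Adipsin above AAV-GFP within a row, with genes ordered by the AAV-GFP mean. Ifi27 heads the order at 37.3 and Oas3 ends it at 0.0339, and the AAV-Adipsin points of Ifit2, Ifit3, Mx1 and Oas3 reach further right than the AAV-GFP points.

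Upstream of these genes, the interferons themselves were close to undetected. Of 21 interferon genes, 16 had no count in any library, among them Ifnb1 and Ifng, and the other 5 had 11 counts in all with at most 2 in a library. None could be tested. The 6 receptor genes had a median log2 fold change of -0.00, with 3 above 0 and none called by edgeR or under an unadjusted p of 0.05. Ifnar1 stood at 0.12 (edgeR adjusted p = 1.00) and Il10rb, the shared chain of the lambda interferon receptor, at -0.08. The 9 kinases, STATs and other IRFs had a median of 0.03 with 6 above 0 and none called by edgeR. Irf8, a factor of myeloid cells, stood at 0.24.

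Of 18 genes that sense nucleic acids and signal towards interferon, 17 were tested and 13 lay above 0, with a median of 0.09 and none called by edgeR. Ifi204, a DNA sensor, had 0.856, 4.19 and 1.98 CPM in AAV-Adipsin 1 to 3 and 0.556, 0.455, 0.676 and 1.52 CPM in AAV-GFP 1 to 4, with a log2 fold change of 1.55 (SE 0.572, edgeR adjusted p = 1.00). Tlr7, the endosomal receptor for single-stranded RNA, stood at 0.91, with 1.87 CPM in AAV-Adipsin 2 and 0.414 to 0.578 CPM elsewhere. Both peaked in AAV-Adipsin 2, which also had the largest sum of macrophage markers, and a link between the 2 was not tested.

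Of 58 further interferon-stimulated genes outside the 39, 52 were tested and 41 lay above 0, with a median of 0.22. None was called by edgeR, and 3 had an unadjusted p under 0.05, all higher in AAV-Adipsin (background 0.721%). Nlrc5, the activator of class I antigen presentation genes, had 1.69, 2.57 and 2.05 CPM in AAV-Adipsin and 1.07, 1.07, 1.27 and 1.31 CPM in AAV-GFP, without overlap (log2 fold change 0.83, SE 0.230, edgeR adjusted p = 1.00). Slfn5 stood at 0.79 (edgeR adjusted p = 1.00), and Rnf213, named after its value was seen, at 0.34 (edgeR adjusted p = 1.00). The 9 feedback inhibitors other than Socs1 and Usp18 had a median of 0.02 with 5 above 0. Socs3, which is induced by cytokines of the interleukin-6 type, stood at 0.26 (edgeR adjusted p = 1.00) and Pias1 at -0.10. None of them was called by edgeR.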

How the data were processed

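The deposited values are counts of reads per gene, whole numbers that the authors did not normalise, in 1 table with a column per library. STAR and mm10 (GRCm38) are named in the submitters' processing notes, and the kit kept strand per the labels' protocols. How reads were assigned to genes, and whether by strand, was not given in the sources used here. Usp18 and Irf7 may share reads with the opposite-strand genes Gm44148 (124 exon bases) and Phrf1 (45 exon bases). Irf1, Ifi35, Eif2ak2 and Dhx58 overlap the opposite-strand genes Gm17334 (135), Gm11626 (290), Gm26637 (174) and Dhx58os (141). Irf9 overlaps the same-strand gene Rnf31 by 123 exon bases, and other members overlap further genes. Symbols, coordinates and exon lengths came from GENCODE mouse release M21 (51719 of 51912 identifiers matched, 193 not, and 22479 had no count).

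Genes were filtered with filterByExpr by group (0.261 CPM in at least 3 libraries), scaled by TMM, a trimmed mean of log ratios between libraries, and tested in R 4.3.3 with edgeR 4.0.16 by robust quasi-likelihood, two-sided, with intercept and treatment. CPM in the text use TMM-scaled totals, and log2 CPM a prior count of 2. Fold changes set AAV-Adipsin over AAV-GFP. The SE of an edgeR log2 fold change was its size divided by the square root of the test's F statistic. It was not estimated by the model directly. DESeq2 1.42.0 and limma 3.58.1 were alternatives. Exact permutation tests on log2 CPM were two-sided over 35 divisions of the libraries. Replicate numbers did not pair the mice. Named in full were the 2 members of each role with the smallest edgeR p, and up to 2 genes per pathway list. A pathway gene that this rule names is not reported here. Motif windows and sequences are from RefSeq. The members, lists and alternatives were chosen with earlier results of these data known. Of the listed symbols, Mb21d1 and Mnda were matched as Cgas and Ifi211. Counting error alone limits single low counts, and no molecular identifiers were used.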

Additional observations from a re-analysis of the deposited data

Results flagged for a closer look

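In 5 of the 39 genes, 1 of the 4 AAV-GFP libraries stood far from the other 3 on the log2 CPM scale. The measure is the gap to the nearest library divided by the whole range, set against Dixon's critical value for 4 libraries, which chance alone passes in about 1 of 20 groups. AAV-GFP 1 was the low library for Gbp6 (0.885), Oasl1 (0.876), Oasl2 (0.864) and Parp14 (0.830). It is the AAV-GFP library that is described by treatment. All 4 genes were called lower in the treatment-named libraries by edgeR, in 1 term fitted over both groups. That fit holds the same AAV-GFP 1 values and adds no independent evidence. AAV-GFP 4 was the high library for Socs1 (0.844), with 2.66 CPM against at most 0.974 CPM in the other AAV-GFP libraries.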

How the results depend on the processing

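The count of listed genes called was 0 under all 16 alternatives and the 1 added later. The count of all genes called was 1, and became 3 with DESeq2, 4 with DESeq2 and description style as a batch, and 0 without a filter on low counts (448 at an unadjusted p under 0.05), with limma-voom (189) and without both treatment-named libraries (492). It was 0 to 1 when 1 library was left out, with 92 to 570 genes at an unadjusted p under 0.05. Over those removals the median log2 fold change of the listed genes ran from 0.13 to 0.66, and 29 to 39 genes lay above 0. Signs held under every alternative run for 28 genes and turned for 11. Irf1 turned to 0.0197 with library totals only, to 0.0191 with description style as a batch, to 0.0215 with the replicate block, to 0.0590 without both treatment-named libraries, and to 0.0270 with DESeq2 and description style. Socs1 turned to 0.0345 with the replicate block. When 1 library was left out the ranges that cross 0 were -0.11 to 0.16 for Cmpk2, -0.17 to 0.67 for Gbp2, -0.26 to 0.68 for Gbp6, -0.16 to 0.29 for Gbp7, -0.13 to 0.23 for Ifi27, -0.00484 to 0.79 for Ifit1, -0.12 to 0.14 for Irf1, -0.0235 to 0.22 for Irgm2, -0.25 to 0.24 for Mx2, -0.0903 to 0.49 for Parp14 and -0.72 to 0.13 for Socs1. The cause of these turns was not tested. The replicate block left 0 listed genes called with 22 at an unadjusted p under 0.05, and 1109 of all genes, but same-numbered mice deviated together only for replicate 1 (r = 0.66, against -0.01 and 0.01 for replicates 2 and 3), which is also the treatment-named pair. Depth limits Oas3, Ifi44, Zbp1, Socs1 and Mx1 most, with 5, 11, 14, 18 and 22 counts in their lowest libraries.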

Other observations

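Interferon-stimulated genes outside the 39 also differed by description style, a comparison made and genes named after the data were seen. Of 52 such genes tested, 20 were lower in the 2 treatment-named libraries by edgeR's quasi-likelihood test at an adjusted p under 0.05 and none was higher (background 5.57% lower). Gbp4, a guanylate-binding protein, fell to 0.908 CPM in AAV-Adipsin 1 and 0.623 CPM in AAV-GFP 1, against 25.2 and 40.4 CPM in AAV-Adipsin 2 and 3 and 31.4, 20.995 and 25.1 CPM in AAV-GFP 2 to 4. Its log2 difference was -5.27 (edgeR adjusted p = 3.15e-04). Gbp10, Gbp9, Gbp5, Gbp8 and Gbp11 fell by 3.47, 3.42, 2.70, 2.16 and 1.78 on the log2 scale. Gbp7, a member of the list, had a difference of -0.45 and was not called.

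Of 6 interferon receptor genes, 3 were also lower in the treatment-named libraries by edgeR at an adjusted p under 0.05 (background 5.57% lower), again as seen only after the data were examined. Ifngr2, the signalling chain of the interferon gamma receptor, fell to 20.6 CPM in AAV-Adipsin 1 and 20.8 CPM in AAV-GFP 1, against 63.1 and 56.5 CPM in AAV-Adipsin 2 and 3 and 56.2, 51.0 and 70.5 CPM in AAV-GFP 2 to 4 (log2 difference -1.52, edgeR adjusted p = 0.00188). Ifngr1, its ligand-binding chain, fell by 0.41 on the log2 scale (edgeR adjusted p = 0.0389) and Ifnar2, a chain of the type I receptor, by 0.37 (adjusted p = 0.0457). Outside the receptors, Jak2, a kinase of the interferon gamma receptor, fell by 0.45 (adjusted p = 0.0304) and Irf2 by 0.69 (adjusted p = 0.00233).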
